A study of Mus musculus with 6 samples.

Results

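The circadian clock genes examined here are 10 named genes: *Clock*, *Arntl* (the name the table uses for *Bmal1*), *Per1*, *Per2*, *Cry1*, *Nr1d1*, *Nr1d2*, *Dbp*, *Bhlhe40* and *Bhlhe41*. They were taken as a named list with no threshold on a measured value, although earlier results of these data were known when the list was made. All 10 were found among the 16244 genes of the deposited table, and all 10 were among the 11908 that passed the filter of a mean of at least 10 normalized reads. RNA-seq was performed on 3 WT and 3 RORγtN275D libraries, where N275D is a single amino acid change in the ligand-binding domain of RORγt, the transcription factor that defines the Th17 lineage. Naive CD4+ T cells from the spleens of WT or N275D knockin mice, both on a C57BL/6 background, were stimulated through CD3 and CD28 and polarized for 3 days toward highly inflammatory Th17 cells with IL-6, IL-1β and IL-23. TGF-β and antibodies against IL-4 and IFN-γ also appear in the general description of the culture. The labels give neither the age of the donors nor whether the mutant allele was on 1 or both chromosomes. The methods state a general age range and the use of both sexes, but not for the donors of these libraries. WT mice were purchased (listed as C57BL/6NJ) and the knockin mice came from another laboratory, so mouse source and genotype cannot be told apart. Nor is it given whether the 3 libraries of a genotype came from separate mice or cultures, so p-values measure the spread between these libraries only.

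The mammalian clock is a feedback loop of transcription. CLOCK and BMAL1 (encoded by *Arntl*) form a dimer that binds E-boxes and activates the *Per* and *Cry* genes, whose proteins return to repress the dimer. A second loop runs through the ROR response element (RORE), where ROR proteins, RORγt among them, activate and the REV-ERB proteins (encoded by *Nr1d1* and *Nr1d2*) repress genes such as *Arntl*. *Bhlhe40* and *Bhlhe41* encode the E-box repressors DEC1 and DEC2, and *Dbp* encodes an activator that carries the rhythm to output genes. In T cells the REV-ERB proteins are also known to compete with RORγt at ROREs, and *Bhlhe40* is known to be induced by T cell receptor signals and to shape cytokine production. The libraries were made at a single culture time, so a different level of a clock gene and a different phase of the clock cannot be told apart.

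RefSeq promoter windows on build GRCm38 (250 bases before to 50 after each annotated start) were at hand for 8 of the 10 genes, in 12 windows, and not for *Bhlhe40* and *Per2*. All windows of *Per1*, *Clock* and *Arntl* lay at annotated starts inside the gene spans given below. None of them reached the outer 5′ end of its gene, so the promoter there was not searched. The start named below for *Per1* is such an inner start. They were searched on both strands for the E-box CACGTG, its variant CACGTT, the RORE core TAGGTCA, the D-boxes TTATGTAA and TTACGTAA, the cAMP response element TGACGTCA, and, since the study concerns HIF-1α, the HIF cores ACGTG and GCGTG. With both strands searched, ACGTG lies inside every CACGTG and every CACGTT. The stretches below hold the E-boxes and the RORE found, with the matched letters in capitals, and each is read 5′ to 3′ on the strand of its gene. The *Cry1* stretch also holds the CACGTT variant, as aacgtg in lower case.

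*Per1* (E-box beginning 166 bases before the start, chr11:69098756-69098815, plus strand): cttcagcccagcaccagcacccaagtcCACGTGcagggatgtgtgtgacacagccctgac

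*Cry1* (E-box beginning 60 bases before the start, chr10:85185082-85185141, minus strand): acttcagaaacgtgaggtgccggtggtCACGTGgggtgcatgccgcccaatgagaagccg

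*Bhlhe41* (E-box beginning 153 bases before the start, chr6:145865556-145865585, minus strand): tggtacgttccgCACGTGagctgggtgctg

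*Nr1d1* (CACGTT variant, read here from the other strand, beginning 28 bases before the start, chr11:98775378-98775437, minus strand): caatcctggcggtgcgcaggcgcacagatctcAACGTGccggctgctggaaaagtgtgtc

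*Arntl* (RORE core beginning 31 bases after the second annotated start, chr7:113207530-113207559, plus strand): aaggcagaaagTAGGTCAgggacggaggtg

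The E-box CACGTG was present in windows of *Per1*, *Cry1* and *Bhlhe41*, against 7.15% of all 32851 promoter windows, and CACGTT in those of *Cry1* and *Nr1d1*, against 4.68%. The RORE core was found in a window of *Arntl* and in no other member's window, against 2.61% of all windows. The D-boxes (0.938% and 0.119% of all windows) and the cAMP response element (1.79%) matched none of the 12. At least 1 HIF core was present in a window of every one of the 8 genes except *Arntl*, and 19.6% of all windows held ACGTG and 32.4% held GCGTG. All these shares are per window, whereas a gene counted here with a match in any of its windows. For the HIF cores a gene also counted with either core, and the share of all windows with either was not computed. The 3 genes with a CACGTG differed in what their transcripts did: *Per1* fell, *Bhlhe41* rose and *Cry1* was not called, as described next.

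The values below are normalized reads, the authors' reads per gene after scaling between libraries. Each gene was tested by limma on log2(normalized reads + 1), with p-values adjusted over all 11908 genes, and was called at an adjusted p under 0.05. Of the 10 clock genes, 3 were called higher in N275D (*Bhlhe41*, *Nr1d2* and *Bhlhe40*), 3 were called lower (*Per1*, *Per2* and *Nr1d1*) and 4 were not called (*Clock*, *Arntl*, *Cry1* and *Dbp*). Over all genes tested, 24.7% were called higher and 26.1% lower, so the share of clock genes called in either direction was near the background. The median log2 fold change of the 10 lay between the values of *Cry1* and *Clock*, -0.03 and 0.03, and the median of all genes tested was -0.00259. One clock gene, *Bhlhe41*, was called at 2-fold or more, where 3.59% of all genes were. In 6 of the 10 the libraries of the genotypes did not overlap, as in 57.7% of all genes tested. With 3 libraries against 3, an exact two-sided permutation test of a single gene cannot go below 0.1, the value for each of those 6. Inferred depth was nearly equal, from 17659035 reads assigned to genes in the shallowest library to 18510878 in the deepest. These totals came from dividing the normalized reads of a library by its smallest nonzero value, taken as 1 read.

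**Figure D1:**
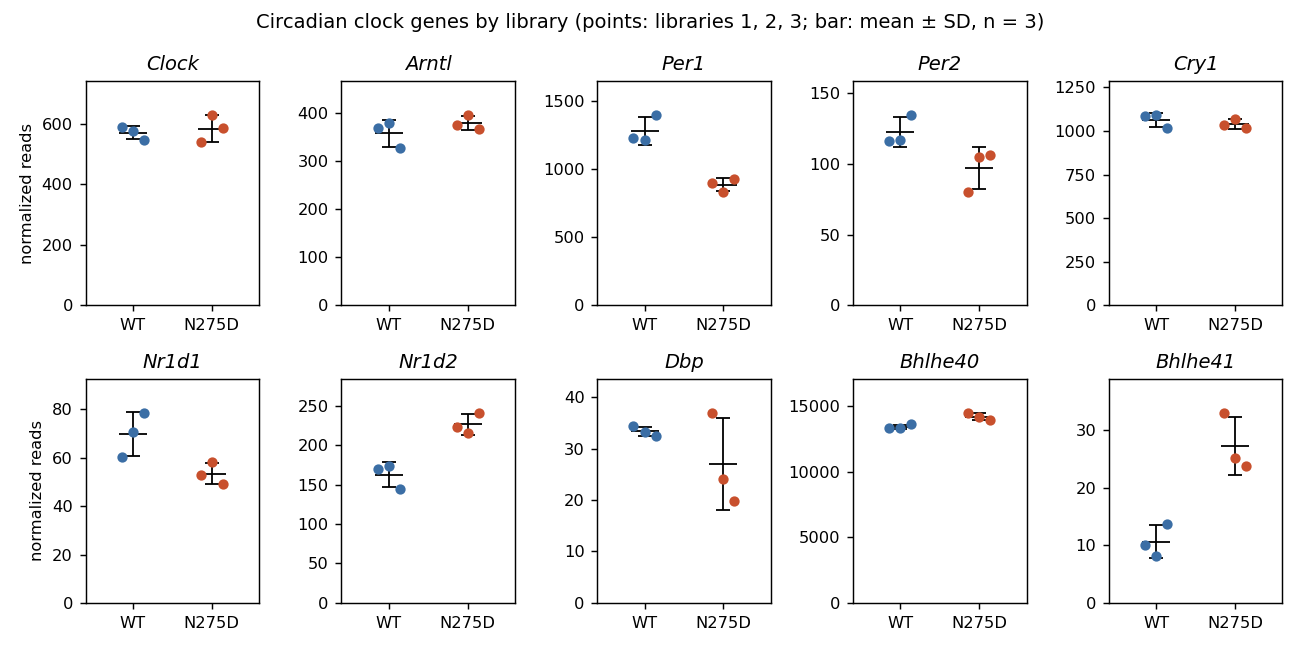
Normalized reads of the 10 clock genes in each of the 3 WT (blue) and 3 N275D (red) libraries, one panel per gene with its own linear axis from 0; points are libraries 1, 2 and 3 from left to right and bars show the mean ± SD (n = 3). The genotypes separate for *Per1*, *Per2*, *Nr1d1*, *Nr1d2*, *Bhlhe40* and *Bhlhe41*, and overlap for *Clock*, *Arntl*, *Cry1* and *Dbp*.

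The activating pair at the centre of the loop was measured at like levels in both genotypes. *Clock* (GRCm38 chromosome 5, 76209868 to 76305603, minus strand) had 589, 578 and 546 normalized reads in WT libraries 1 to 3 and 539, 629 and 586 in N275D libraries 1 to 3. Its lowest and highest values were both in N275D libraries. The log2 fold change was 0.03 (95% interval -0.11 to 0.17, limma adjusted p = 0.711), and its sign turned without WT library 3 (-0.000686) or N275D library 2 (-0.0229). *Arntl* (chromosome 7, 113178471 to 113314126, plus strand) had 370, 379 and 327 normalized reads in WT and 375, 396 and 368 in N275D. WT library 3 was lower than the other 5, which lay close together. The difference was 0.08 on the log2 scale (95% interval -0.07 to 0.24, limma adjusted p = 0.348). For both genes the interval leaves out a change as large as that of *Per1*. The ratio of *Arntl* to *Clock* reads within a library was 0.628 ± 0.0286 in WT and 0.652 ± 0.0386 in N275D (SD, n = 3 each), and the genotypes overlapped.

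Among the repressors of that pair, *Per1* showed the clearest loss. *Per1* (chromosome 11, 69095108 to 69109965, plus strand), which besides its rhythm is quickly induced by cAMP and glucocorticoid signals, had 1228, 1220 and 1399 normalized reads in WT and 898, 835 and 931 in N275D. The highest mutant library lay well below the lowest WT library. The mean fell by 30.7%, and limma put the change at -0.53 on the log2 scale (standard error, SE, 0.06, limma adjusted p = 2.41e-06), and the call held under all 14 alternative settings. *Per2* (chromosome 1, 91415977 to 91459351, minus strand) had 116, 117 and 135 normalized reads in WT and 79.9, 105 and 107 in N275D. N275D library 1 was the lowest of the 6 and WT library 3 the highest. *Per2* was called lower, by -0.34 on the log2 scale (SE 0.13, limma adjusted p = 0.0338), a call lost without N275D library 1 (adjusted p = 0.190) or WT library 3 (adjusted p = 0.0971), with every gene above 0 tested (0.0730) or without a trended prior (0.0743), within a range from 0.00585 to 0.190 over the alternatives.

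*Cry1* (chromosome 10, 85131700 to 85185054, minus strand), the cryptochrome that represses the dimer most strongly, was steady, with 1084, 1090 and 1017 normalized reads in WT and 1035, 1071 and 1015 in N275D. All 3 mutant libraries lay within or just under the WT range. The log2 fold change of *Cry1* was -0.03 (95% interval -0.14 to 0.07, limma adjusted p = 0.622). *Cry2*, the other cryptochrome and not among the 10, rose in the same cells from 155, 134 and 158 to 262, 253 and 267 normalized reads, a log2 fold change of 0.80 (SE 0.09, limma adjusted p = 1.63e-06). *Cry1* reads, in a ratio taken after the values were seen, outnumbered *Cry2* reads 6.97, 8.13 and 6.43 times in WT libraries and 3.96, 4.24 and 3.81 times in N275D libraries. The ratio did not overlap between the genotypes (exact permutation p = 0.1, the smallest possible).

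The REV-ERB genes were called in opposite directions. *Nr1d2* (chromosome 14, 18204056 to 18239106, minus strand), which encodes REV-ERBβ, rose from 170, 174 and 144 normalized reads in WT to 223, 216 and 241 in N275D. The mutant mean was 1.39 times the WT mean, and the log2 change, 0.48 (SE 0.09, limma adjusted p = 0.000449), was called under all 14 alternatives. *Nr1d1* (chromosome 11, 98767932 to 98775377, minus strand), which encodes REV-ERBα, had 60.6, 70.6 and 78.6 normalized reads in WT and 52.9, 58.2 and 49.4 in N275D. The gap between the genotypes, from 58.2 to 60.6, was narrow. On the log2 scale it was called lower by -0.38 (SE 0.15, limma adjusted p = 0.0404), and the call was lost without WT library 2 (adjusted p = 0.0873), WT library 3 (0.149), N275D library 1 (0.0881) or N275D library 3 (0.126), and with every gene above 0 tested (0.0807), within a range from 0.00422 to 0.149 over the alternatives. Exons of *Nr1d1* share 263 bases, or 8.55% of their length, with *Thra*, the gene of a thyroid hormone receptor on the other strand. *Thra* itself was called higher, at 151 ± 20.6 normalized reads in WT and 196 ± 8.03 in N275D (SD, n = 3 each, log2 fold change 0.38, limma adjusted p = 0.00484), and because the strand setting of the counting is not stated, reads of the shared bases cannot be told apart. Within a library, *Nr1d2* reads outnumbered *Nr1d1* reads 2.80, 2.46 and 1.84 times in WT and 4.21, 3.71 and 4.88 times in N275D.

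**Figure D2:**
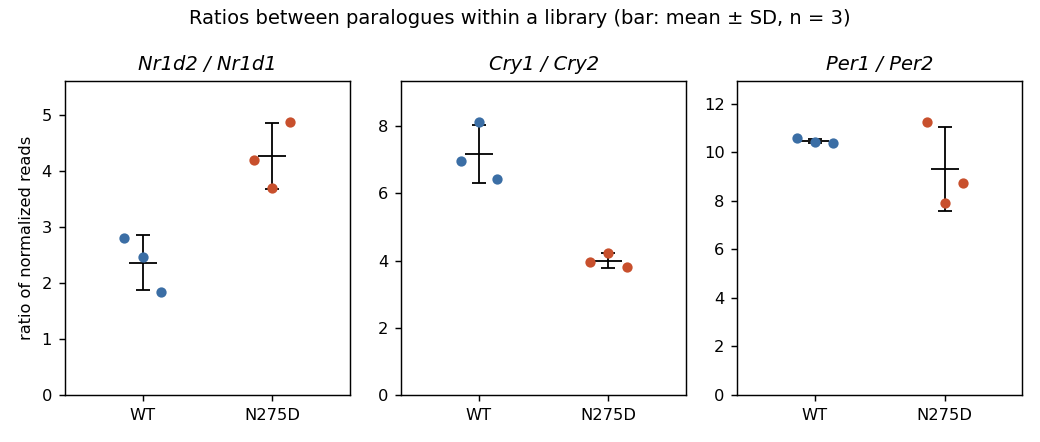
Ratio of normalized reads of one clock gene to those of its relative in each library, for *Nr1d2* over *Nr1d1*, *Cry1* over *Cry2* and *Per1* over *Per2*; each linear axis starts at 0, points are libraries and bars are the mean ± SD (n = 3). The first and second ratios do not overlap between WT and N275D, while *Per1* over *Per2* does, at 10.5 ± 0.102 in WT and 9.30 ± 1.73 in N275D.

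The output activator *Dbp* (chromosome 7, 45705100 to 45710203, plus strand) had 34.3, 33.3 and 32.4 normalized reads in WT and 36.9, 24.1 and 19.8 in N275D. The WT libraries were tight, whereas N275D library 1 exceeded them all and the other 2 mutant libraries lay below. *Dbp* was not called (log2 fold change -0.35, 95% interval -0.82 to 0.13, limma adjusted p = 0.215), and it was called lower without N275D library 1 (-0.59, adjusted p = 0.0452, where the other alternatives ran from 0.0692 to 0.613). Of its exon length, 539 bases are shared with *Sphk2* on the other strand, a gene with 1013 ± 65.8 normalized reads in WT (SD, n = 3). At so few reads, counting alone gives an SD of 5.77 reads at the WT mean of *Dbp* and 5.19 at the mutant mean, where the measured SD was 8.94. *Tef*, which encodes a relative of DBP that binds the same D-boxes, rose from 262, 263 and 281 to 365, 383 and 351 normalized reads (log2 fold change 0.44, SE 0.07, limma adjusted p = 7.04e-05). A further relative, *Hlf*, had at most 11.8 normalized reads in any library and did not pass the filter.

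*Bhlhe41* (chromosome 6, 145858243 to 145865420, minus strand), encoding DEC2, changed most of the 10. It had 10.1, 8.07 and 13.8 normalized reads in WT and 32.9, 25.1 and 23.7 in N275D. Every mutant library lay well above the highest WT value, although all 6 values were low. The mutant mean was 2.56 times the WT mean, and the log2 fold change, which the pseudocount makes smaller at this level, was 1.29 (SE 0.27, limma adjusted p = 0.000884). The call held in all 13 alternatives in which the gene was tested, with values from 0.85 at a pseudocount of 10 to 1.48 without WT library 3. Gm43909, an unconfirmed gene model on the other strand, shares 1280 bases, or 19.0%, of the exon length.

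*Bhlhe40* (chromosome 6, 108660629 to 108666925, plus strand), encoding DEC1, was by far the most abundant member. It had 13335, 13313 and 13639 normalized reads in WT and 14494, 14183 and 13961 in N275D. The genotypes did not overlap, but the mean was 5.84% higher and no more. The log2 fold change was 0.08 (SE 0.03, limma adjusted p = 0.0436). *Bhlhe40* kept its call without WT library 3 (adjusted p = 0.00601) and lost it without each of the other 5 libraries, at adjusted p from 0.0589 to 0.173. The call was also lost with every gene above 0 tested (0.0741) or without a trended prior (0.127). *Bhlhe40* reads outnumbered those of *Bhlhe41* by 1321 ± 329 times in WT and 532 ± 80.1 times in N275D (SD, n = 3 each). *Hif1a*, whose protein is known to induce both DEC genes in low oxygen, was at 5137 ± 317 normalized reads in WT and 8785 ± 55.9 in N275D libraries (SD, n = 3 each, log2 fold change 0.78, limma adjusted p = 4.00e-10), and its part in the level of either gene was not tested.

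**Figure D3:**
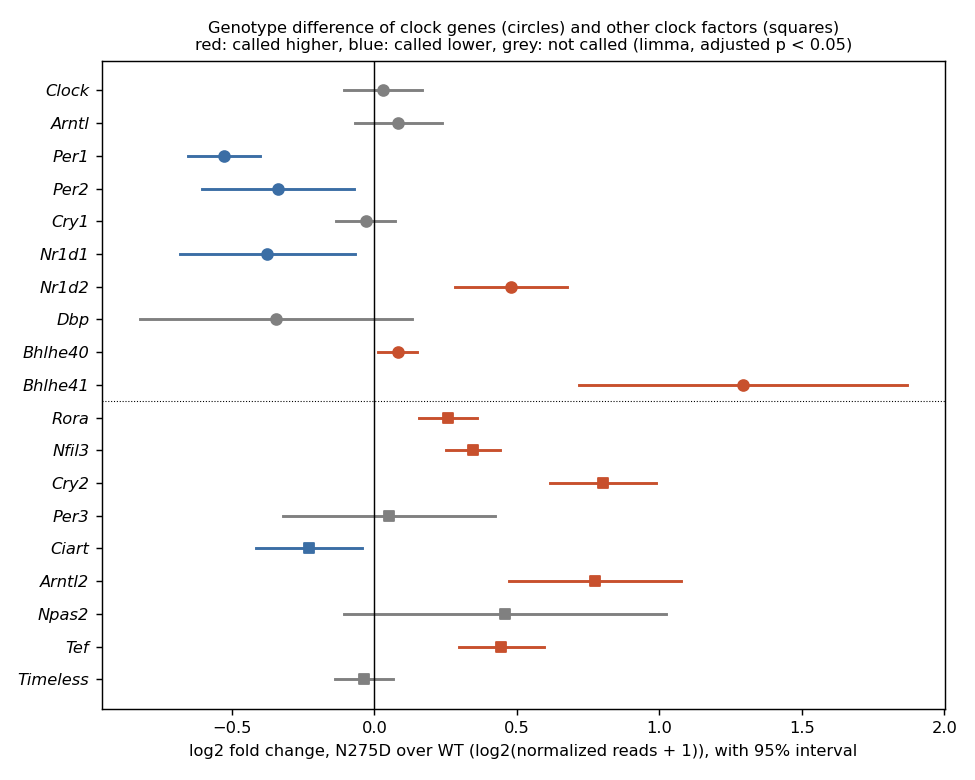
Log2 fold change of N275D over WT, on the log2(normalized reads + 1) scale, for the 10 clock genes (circles) and other clock factors (squares), with horizontal lines for the 95% interval from limma; red marks genes called higher, blue called lower and grey not called. *Clock*, *Arntl* and *Cry1* have short intervals around 0, *Dbp* has a wide one, and *Bhlhe41* lies farthest to the right at 1.29.

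The abundance of the 10 genes spread widely when expressed per exon length, using the merged exons of GENCODE M21. Those lengths join the exons of all annotated transcripts of a gene. Which transcripts these cells express was not measured, so the order of genes and the distances between them hold for these lengths only. Among WT libraries *Bhlhe40* led at 2854 ± 38.7 normalized reads per kb, followed by *Cry1* at 318 ± 12.2 and *Per1* at 228 ± 17.9. *Arntl* (47.7 ± 3.71 per kb) and *Clock* (41.6 ± 1.63 per kb) came next, then *Nr1d2* (26.7 to 32.1 per kb). *Nr1d1* (22.7 ± 2.93 per kb) and *Per2* (20.9 ± 1.78 per kb) had overlapping ranges, and *Dbp* (11.1 ± 0.318 per kb) and *Bhlhe41* (1.58 ± 0.429 per kb) were lowest (SD, n = 3 each). The order was the same in N275D cells, but the distances were not. *Nr1d2* per kb reached the level of *Clock* there, at 41.9 ± 2.41 against 42.6 ± 3.28, and their libraries overlapped, whereas in WT every *Clock* value was above every *Nr1d2* value. *Per1* per kb went down to 158 ± 8.72, farther below *Cry1*, which stayed at 312 ± 8.53.

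**Figure D4:**
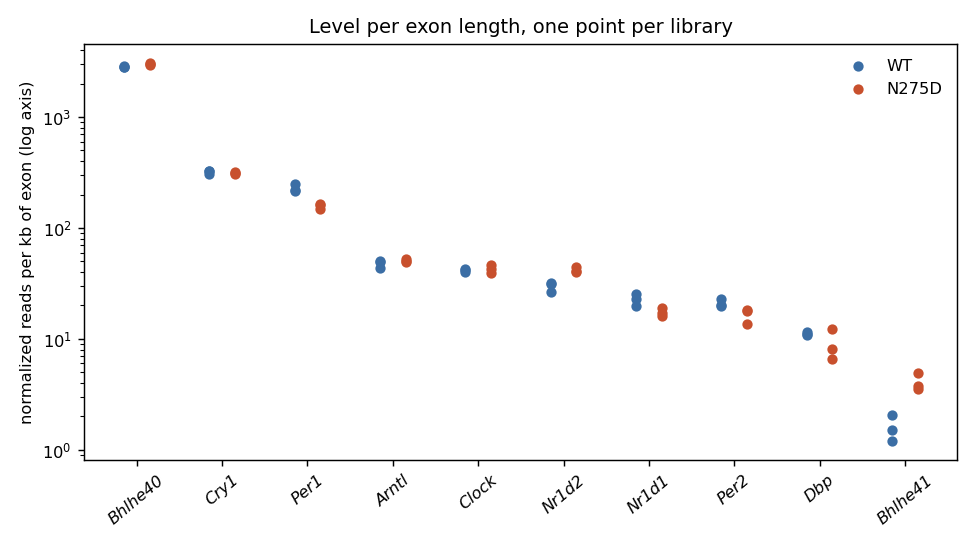
Normalized reads per kb of merged exon (log axis) for the 10 clock genes, ordered by their WT mean, with one point per library in blue (WT) and red (N275D). *Bhlhe40* stands alone at the top, *Cry1* and *Per1* form the next level, and *Bhlhe41* is lowest in both genotypes, at 1.58 per kb in WT and 4.05 per kb in N275D.

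Other factors of the loop were read from a list of 12 genes, of which 10 passed the filter, 5 called higher and 2 lower, at a median of 0.30 on the log2 scale. The shares over all genes tested were 24.7% higher and 26.1% lower. *Rora*, which activates through ROREs, had 2288, 2326 and 2170 normalized reads in WT and 2550, 2679 and 2887 in N275D (log2 fold change 0.26, limma adjusted p = 0.000338). Every mutant library lay above every WT library. *Nfil3*, whose protein represses at D-boxes and which is itself repressed by REV-ERBα, rose from 951, 983 and 962 to 1227, 1229 and 1225 normalized reads (log2 fold change 0.35, limma adjusted p = 1.09e-05). *Arntl2*, a relative of *Arntl*, rose from 41.4 ± 3.05 to 71.4 ± 3.69 (SD, n = 3 each, log2 fold change 0.77, limma adjusted p = 0.000290). *Ciart*, the gene of a further repressor of CLOCK and BMAL1, was called lower (-0.23, limma adjusted p = 0.0396), but the call was lost without each library in turn except WT library 2, at adjusted p from 0.0580 to 0.145, and with every gene above 0 tested (0.0679) or without a trended prior (0.0520). *Npas2*, a stand-in for *Clock* (0.46, adjusted p = 0.163), and *Per3* (0.05, adjusted p = 0.826) were not called.

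The same genes were also counted by arm of the loop, in lists that put each gene in 1 arm at most. The cryptochrome genes are also known E-box targets but were not in the E-box list: *Cry1* was placed with the RORE genes, although its promoter holds the E-box shown above, and *Cry2*, called higher, was placed in neither. Of the 11 genes of the E-box list (the *Per* genes, the REV-ERB genes, *Dbp*, *Tef*, *Hlf*, *Ciart* and the DEC genes) 10 were tested, with 4 called higher, 4 lower and the median at -0.09 on the log2 scale. Without WT library 3 only 1 of them was called lower, and without N275D library 1 or 3 there were 2. With every library kept, 24.7% of all genes tested were called higher and 26.1% lower. Lower calls over all genes went from 3109 to 3298 without WT library 3. They went to 2673 without N275D library 1 and to 2669 without N275D library 3. Among *Arntl*, *Clock*, *Npas2*, *Cry1* and *Nfil3*, taken from the RORE list, *Nfil3* was called higher and the others were not called.

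A mixed list of clock protein modifiers and transcription cofactors gave 5 higher and 4 lower calls among 16 tested, the median being 0.04 on the log2 scale. Beside this list and the output genes below, 24.7% of all genes tested were called higher and 26.1% lower. *Gsk3b*, a kinase of several clock proteins (0.28, limma adjusted p = 6.08e-05), rose under all 14 alternatives. *Fbxl21*, which encodes a ubiquitin ligase subunit for cryptochromes, with 8.29 ± 3.88 normalized reads in WT and 16.9 ± 0.863 in N275D (SD, n = 3 each), was called at 1.02, and *Btrc*, a ligase subunit for PER proteins, at 0.18. *Fbxl21* lost its call in 4 of 6 leave-outs, at adjusted p up to 0.0608 (all but WT library 3 and N275D library 2), and *Btrc* in 4, at up to 0.159 (all but WT libraries 2 and 3). Quantile normalization also ended both calls (0.0644 and 0.0920), and *Btrc* lost its call without a trended prior (0.0566). On the lower side were *Fbxw7* (-0.25, limma adjusted p = 0.00237), *Wdr5* (-0.18), *Ncor1*, the corepressor that REV-ERB proteins recruit (-0.18), and *Nono* (-0.13). The calls of *Ncor1* and *Nono* were lost under quantile normalization (limma adjusted p = 0.0889 and 0.0689). Genes that follow the clock in many tissues were called higher in 4 and lower in 3 of 10 cases, around a median of 0.14 (log2). The ends of that list were *Tsc22d3*, the glucocorticoid-induced gene of GILZ (0.95, adjusted p = 2.80e-08), and *Tspan4* (-0.62, adjusted p = 2.16e-06, both from limma).

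*Per1* is known as a target of cAMP signalling through CREB and of glucocorticoids, so the genes of those inputs are given beside it. Of 6 CREB-responsive genes, 3 were called higher and 3 lower. For this and the lists that follow, the shares over all genes tested were 24.7% higher and 26.1% lower. *Crem*, which also encodes the CREB antagonist ICER, rose from 976, 921 and 865 to 2332, 2295 and 2383 normalized reads (log2 fold change 1.34, limma adjusted p = 4.50e-12). *Nr4a1* lay at the other end (-0.84, limma adjusted p = 4.79e-10), the same direction as *Per1*. Of 4 glucocorticoid-responsive genes 3 were tested, and *Tsc22d3* was the one called, while *Fkbp5* was not (-0.07, adjusted p = 0.188). Their part in the level of *Per1* was not tested. Among 7 Th17 genes with known ties to clock factors, *Rora* and *Nfil3* among them, 5 were called higher and 2 lower. *Il10*, which DEC1 is known to repress, was highest in that list at 0.71 (limma adjusted p = 0.00276). *Csf2*, which DEC1 is known to promote, was lowest at -0.64 (limma adjusted p = 4.14e-07). *Bhlhe40*, which encodes DEC1, was at 0.08, and its part in the level of *Il10* or *Csf2* was not tested.

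The pattern of *Bhlhe41*, the gene with the largest change, over the 6 libraries was most like those of *Hectd3* (Pearson r = 0.9981 on the log2 scale), *Itgb7* (0.9973) and *Evl* (0.9968). These are a description over 6 libraries that share the split by genotype, and 478 genes had an r above 0.95.

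Th17 identity was clear in all libraries. The 7 helper T and Th17 markers summed to between 73901 and 78029 normalized reads in WT and between 85243 and 86251 in N275D libraries, and all 7 were present in each. Markers of other cells were far lower, and some moved with genotype, and in bulk RNA fewer cells of a type and less RNA per cell cannot be told apart. The 5 B cell markers summed to 150 to 160 in WT and 214 to 273 in N275D, with *Ms4a1* at 0 in WT libraries 2 and 3. Of the CD8 T and natural killer markers 4 of 5 were measured, summing to 173 to 204 and 256 to 272, with *Klrb1c* at 0 in all N275D libraries and in WT library 3. The 5 myeloid markers summed to 81.8 to 92.8 and 82.0 to 106, with *Csf1r* at 0 in WT library 3. For gamma delta T cells 1 of 4 markers, *Sox13*, was measured, at 18.2 to 31.4 and 35.1 to 38.5. Of the markers that passed the filter, 3 of 4 for B cells, 2 of 3 for CD8 T and natural killer cells and *Sox13* were called higher, and 1 of 2 for myeloid cells was called lower. Among all genes tested, 24.7% were called higher and 26.1% lower. Each of these sums was above the reads of *Bhlhe41* in every library, and the part of such cells in *Bhlhe41* and the other low clock genes was not tested.

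**Figure D5:**
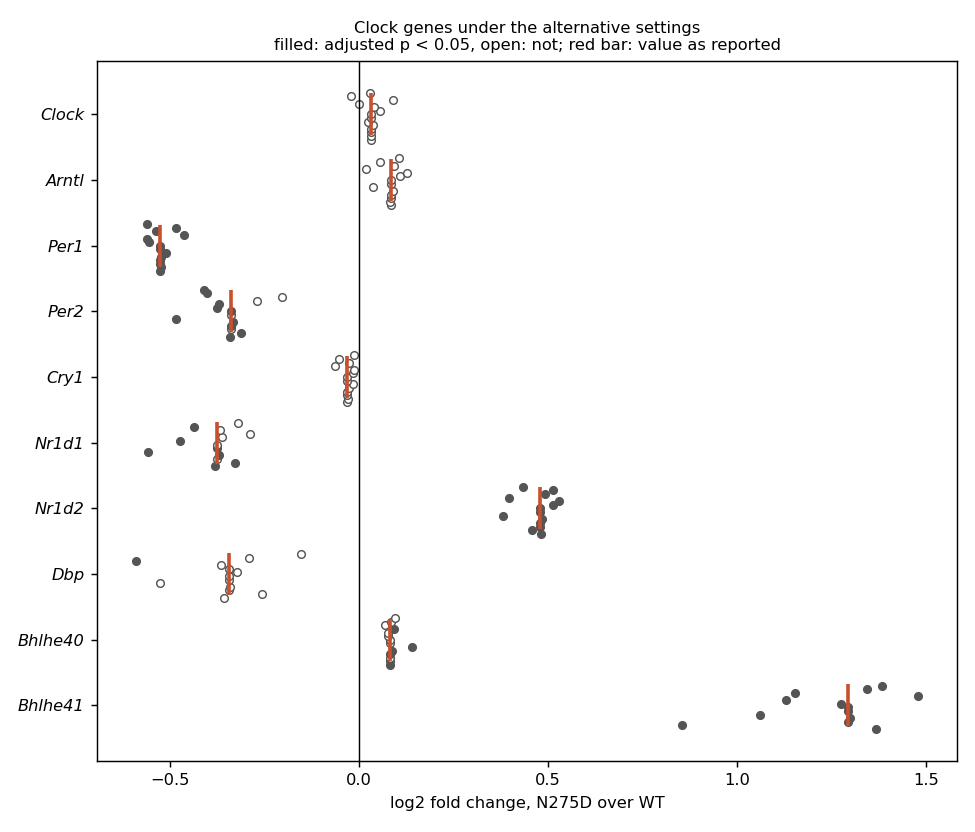
Log2 fold change of N275D over WT for the 10 clock genes under each alternative setting (circles, filled where the adjusted p from limma was under 0.05, open where not) and as reported (red bar). *Per1*, *Nr1d2* and *Bhlhe41* are filled throughout, *Per2*, *Nr1d1* and *Bhlhe40* are mixed, *Dbp* is filled once, and *Clock*, *Arntl* and *Cry1* have no filled circle.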

How the data were processed

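RNA-seq of 3 WT and 3 N275D libraries was used, with genotype and replicate taken from the sample titles. The authors trimmed and then aligned reads with STAR (build mm10) before counting per gene with featureCounts, per their methods. Tool versions and the strand setting are not given in the sources used here. The labels name another directional library kit than the methods. The deposited signal values are normalized reads, and in every library 100% of them are whole multiples, within 1e-06, of 1 factor between 0.982 and 1.01. The authors also deposited their log2 fold changes, their q-values, rounded group averages and a number of transcripts (unit other), none of which were used. No per-sample column was left unused.

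Values were tested with limma (version 3.58.1, R 4.3.3, trended prior) on log2(normalized reads + 1). Of the table, 11908 genes averaging at least 10 entered, with Benjamini-Hochberg adjustment over all of them. The script was tested on simulated data. Clock genes and lists were chosen with earlier results of these data known. Named genes are all 10 clock genes, the called genes of the 2 other clock lists (up to 4 per direction), 7 further clock factors, and the largest change in each direction of the remaining lists; overlapping genes, *Hlf*, *Hif1a*, *Timeless*, markers listed at 0, *Sox13* and the ratios were added after values were seen. Some genes under this rule are not reported here, though list counts include them. Promoters and positions are from RefSeq on GRCm38.p6 (mm10), exon lengths from GENCODE M21. Alternatives were other pseudocounts (0.1, 10), low-value filters (all genes above 0, or averages from 100 up), TMM (own code) and quantile scaling, no trend, a replicate block and each library left out.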

Additional observations from a re-analysis of the deposited data

How the results depend on the processing

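*Per1*, *Nr1d2*, *Bhlhe41*, *Cry2*, *Arntl2*, *Tef*, *Nfil3* and *Rora* kept direction and call in every alternative in which they were tested. For the clock genes and the other genes named, 436 values under an alternative stayed on their side of the threshold, 38 lost a call, 1 gained one and 7 changed sign. The number of clock genes called at 2-fold was 0 rather than 1 with a pseudocount of 10 and, since *Bhlhe41* is then not tested, with a mean of at least 100. Over all genes, 427 were called at 2-fold, against 259 with a pseudocount of 10, 703 with a mean above 0 and 162 with a mean of at least 100. With all genes with a mean above 0, 1 clock gene was called lower rather than 3 and 2 E-box genes rather than 4. Without a trend, 1 other clock factor was called lower rather than 2, and 2 E-box genes rather than 4. Quantile normalization gave 2 lower calls among clock protein modifiers and cofactors rather than 4. It also turned *Per3* (-0.12) and *Timeless* (0.0217), neither of which was called. The number called lower over all genes moved as well. It was 3109 of 11908 as reported and 2979 of 16244 with a mean above 0. It was 2653 of 11908 without a trend and 3066 of 11908 with quantile normalization. The cause of these shifts was not tested.

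With each library left out in turn, clock genes called higher numbered 2 to 3 and those called lower 1 to 3 (1 without WT library 3), with 1 at 2-fold throughout. Other clock factors called lower numbered 1 to 2 and E-box genes called lower 1 to 3. Modifiers and cofactors called higher numbered 3 to 5 (3 without WT library 1, N275D library 1 or N275D library 3). Those called lower numbered 4 to 5. Over all genes, 2490 to 3100 were called higher and 2652 to 3298 lower, against 2947 and 3109 with every library kept. The sign turned for 3 uncalled genes, *Clock* (-0.0229 to 0.0882 over the 6 leave-outs), *Per3* (-0.0799 to 0.143) and *Timeless* (-0.0599 to 0.00446). Same-numbered libraries did not deviate together (Pearson r over genes -0.0455, 0.0407 and -0.0828). Such values cannot show whether same-numbered libraries were prepared together, and the labels do not say. With the replicate block, *Bhlhe40* (adjusted p = 0.0968) and *Nr1d1* (adjusted p = 0.0510) lost their calls. The planned edgeR and DESeq2 alternatives were not run, since the deposited values are normalized reads and were not tested as counts. Below about 100 normalized reads, as for *Dbp*, *Nr1d1* and *Bhlhe41*, counting error limits what can be seen.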
